A study of Homo sapiens with 8 samples.

Results

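The 56 genes described here encode the working parts of the lysosome: hydrolases and their lumenal cofactors (31 genes), membrane proteins (6 genes), subunits of the vacuolar proton pump or V-ATPase (16 genes) and the transcription factors TFEB, TFE3 and MITF. They were taken by symbol from a list drawn up with earlier results of these data known, and all 56 were found among the 58206 genes of the count table. RNA came from Alexander1 cells (ATCC CRL-8024), an established human hepatocellular carcinoma line. The 4 wt libraries were made from the parental line, whose own Axin1 lacks the stretch that binds the kinase GSK3, so that its canonical Wnt pathway is constantly on. The 4 Axin1+ libraries were made from a stable derivative that had received a full-length Axin1 construct (Addgene plasmid #24928) by retroviral transfer and clonal selection with hygromycin B. Both lines were grown in DMEM with serum, and they share the truncated endogenous Axin1. The treatment is recorded in the same words for both groups of libraries, and the series' design text assigns the full-length Axin1, at physiological levels, to the derivative. The effect of Axin1 and that of the clonal selection of the derivative cannot be told apart. The labels do not say whether the libraries of a line came from separate cultures, and p-values measure the spread between these libraries.

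Lysosomes degrade proteins, glycans, nucleic acids and lipids delivered by endocytosis and autophagy. The V-ATPase couples ATP hydrolysis in its cytosolic V1 sector to proton transport through its membrane-embedded V0 sector, and the acid pH activates the hydrolases. Factors of the MiT/TFE family bind E-box elements of the CLEAR type near the starts of many lysosomal genes. Canonical Wnt signalling is known to act on endocytosis and on the turnover of endocytosed proteins in lysosomes, and the title of the series concerns Wnt and the endocytosis of integrin beta-1.

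Libraries held between 11232951 and 26400782 counts, and the lysosomal genes took between 0.791% and 1.06% of them. Levels are given as CPM, that is counts brought to a common library total with edgeR's TMM factors, and 3 counts corresponded to between 0.108 and 0.267 CPM. In a principal component analysis of all tested genes wt replicate 1 stood apart from the other libraries on the second component, and Axin1+ replicate 1 lay closest to the wt libraries on the first. AXIN1 itself was not higher in the libraries labelled Axin1+, with 47.4 to 55.3 CPM in the wt and 37.7 to 48.2 CPM in the Axin1+ libraries (log2 fold change -0.21, SE 0.12, edgeR adjusted p = 0.267), so every direction below rests on the labels. All 10 hepatocyte markers examined had a mean of at least 1 CPM, among them ALB, APOB and HNF4A, and they did not move together. FGB and TTR were called higher (log2 fold changes 2.05 and 1.76), SERPINA1 and TF were called lower (-0.64 and -0.94), and the other 6 were not called. Their summed level, most of it SERPINA1, was 23510 to 27360 CPM in the wt and 18180 to 21670 CPM in the Axin1+ libraries. Keratins KRT8 and KRT18 and the cadherin CDH1 were expressed, while the epithelial marker EPCAM was at 0.190 CPM in the wt and 0.118 CPM in the Axin1+ libraries. CDH1 was called higher (log2 fold change 0.50, edgeR adjusted p = 0.0181) and the keratins were not called. Macrophages, which are rich in lysosomes, left little trace, since the 7 macrophage markers summed to between 0 and 0.712 CPM in any library and CSF1R and TYROBP had no count at all. Of the endothelial and fibroblast markers, PECAM1 differed most, with means of 5.18 CPM in the wt and 48.2 CPM in the Axin1+ libraries, while the group means of VWF, CDH5, KDR and TEK were at most 0.144 CPM. The fibroblast marker PDGFRB was called lower, from 1.69 to 0.221 CPM (log2 fold change -2.87, edgeR adjusted p = 0.00454). COL1A1, at 1.11 and 1.87 CPM, was not called, and COL1A2, COL3A1, DCN and LUM did not pass the filter on low counts.

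**Figure D1:**
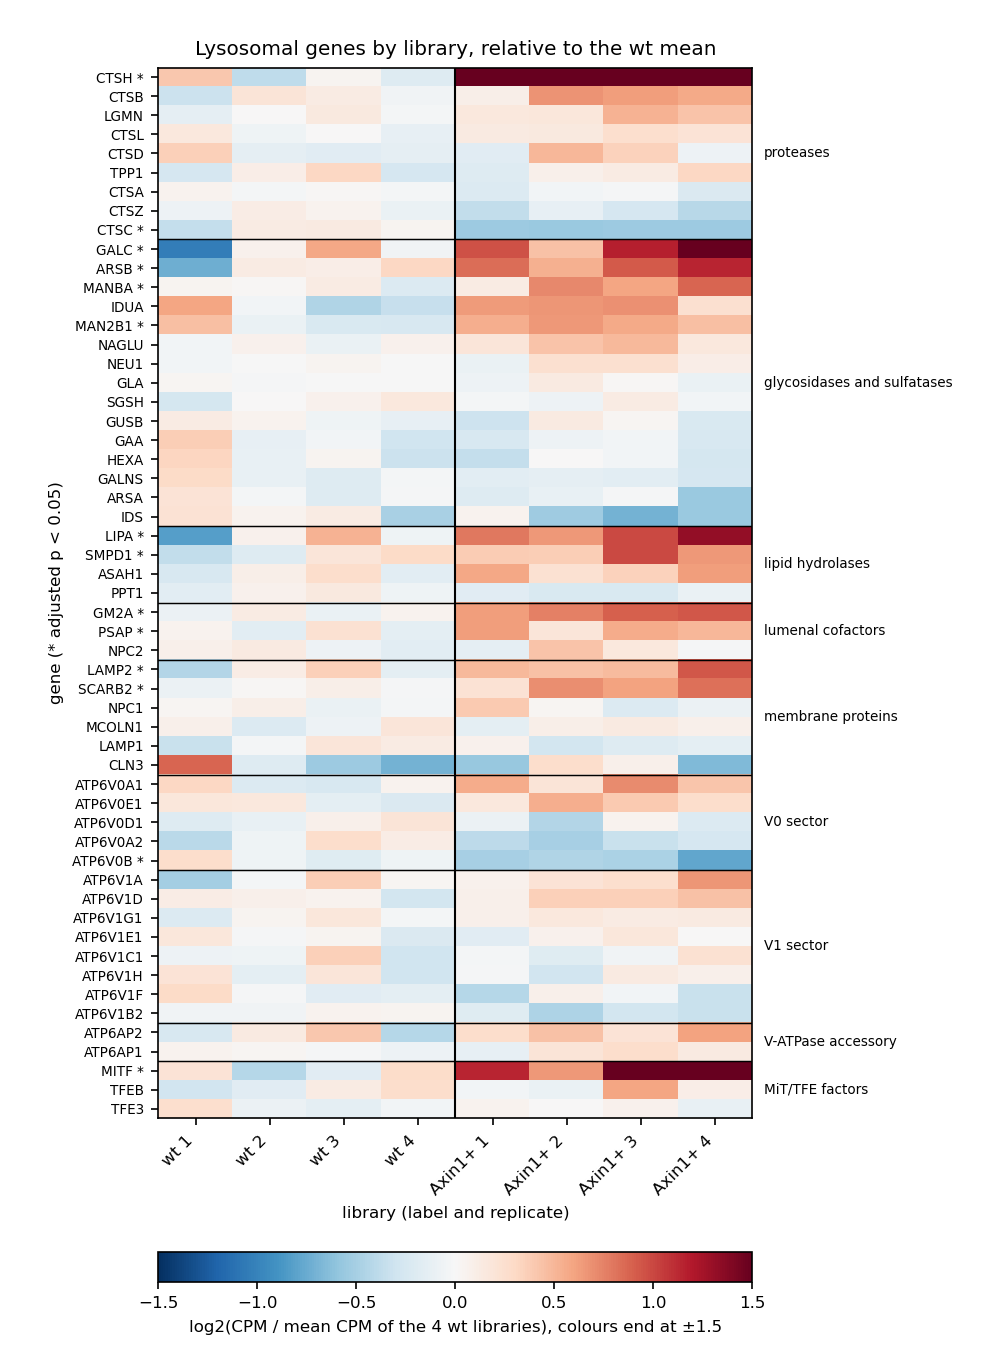
Each row is one of the 55 tested lysosomal genes and each column one library, and the colour gives log2 of the CPM over the mean of the 4 wt libraries. Rows are grouped by role, and stars mark the 14 genes with an adjusted p under 0.05, of which CTSH and MITF were the most raised in the Axin1+ libraries.

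The comparison asked whether the lysosomal gene set differed between the parental and the Axin1+ line. Of the 56 genes, 55 passed the filter on low counts and 14 passed an adjusted p of 0.05 in the quasi-likelihood test of edgeR, adjusted by the Benjamini-Hochberg method across all 14289 tested genes. Among these, 12 were higher and 2 were lower in the Axin1+ libraries. The 14 made up 25.5% of the lysosomal genes tested, beside 19.2% of all genes tested. By direction, 21.8% of the lysosomal genes were higher, beside 10.4% of all genes, and 3.64% were lower, beside 8.77%. Since the list was drawn up with earlier results of these data known, these shares describe the set and do not test it. With total counts as the only scaling, the calls over all genes moved from 1485 higher and 1253 lower to 1724 higher and 868 lower, and 19 lysosomal genes were then higher and 1 was lower. At an unadjusted p under 0.05 there were 25 lysosomal genes, beside 33.5% of all genes. The median log2 fold change of the 55 genes was 0.12, against 0.003 over all genes, and 35 values were above 0 and 20 below. Summed over all 56 genes the level was 8390 to 9362 CPM in the wt and 9353 to 10290 CPM in the Axin1+ libraries, so the ranges overlapped slightly.

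The called differences were small for most genes. Only CTSH, MITF and GALC reached an absolute log2 fold change of 1, and the 41 genes that were not called lay between -0.40 and 0.57. Values of the wt and Axin1+ libraries did not overlap for 15 of the 55 genes (27.3%), beside 23.9% of all genes, and 11 of these were higher (background 12.7%) and 4 lower (background 11.2%). These 15 included CTSZ, LGMN, NAGLU and ATP6V1B2, which did not pass the test, while the called genes GALC, MANBA and PSAP had overlapping values. The number of calls depended on single libraries. Without Axin1+ replicate 4 only 2 lysosomal genes were higher and 0 lower, and without Axin1+ replicate 3 or wt replicate 2 it was 4 higher and 1 lower in each case. Calls over all genes fell too, from 1485 higher and 1253 lower of 14289. They were 797 and 597 of 14361 without Axin1+ replicate 4. Without Axin1+ replicate 3 they were 871 and 660 of 14361, and without wt replicate 2 840 and 668 of 14417. Other fits kept nearly all of the higher calls in the set. Without wt replicate 1 there were 12 higher, beside 1918 of 14612 genes. Without wt replicate 3 there were 11, beside 1130 of 14686, and without Axin1+ replicate 2 11, beside 1186 of 14619. The larger share of higher genes in the set thus varied with the library left out, and the difference was not tested. Without wt replicate 4 there were 6 higher genes, beside 1174 of all 14656 tested. Without Axin1+ replicate 1 the 12 higher were accompanied by 4 lower ones, beside 1583 higher and 1576 lower of 14380. Leaving out both wt replicate 1 and Axin1+ replicate 1 gave 18 higher and 5 lower genes of the set, beside 2380 higher and 2243 lower of 14332 genes. CTSH and GM2A kept their call in all 18 alternative analyses.

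**Figure D2:**
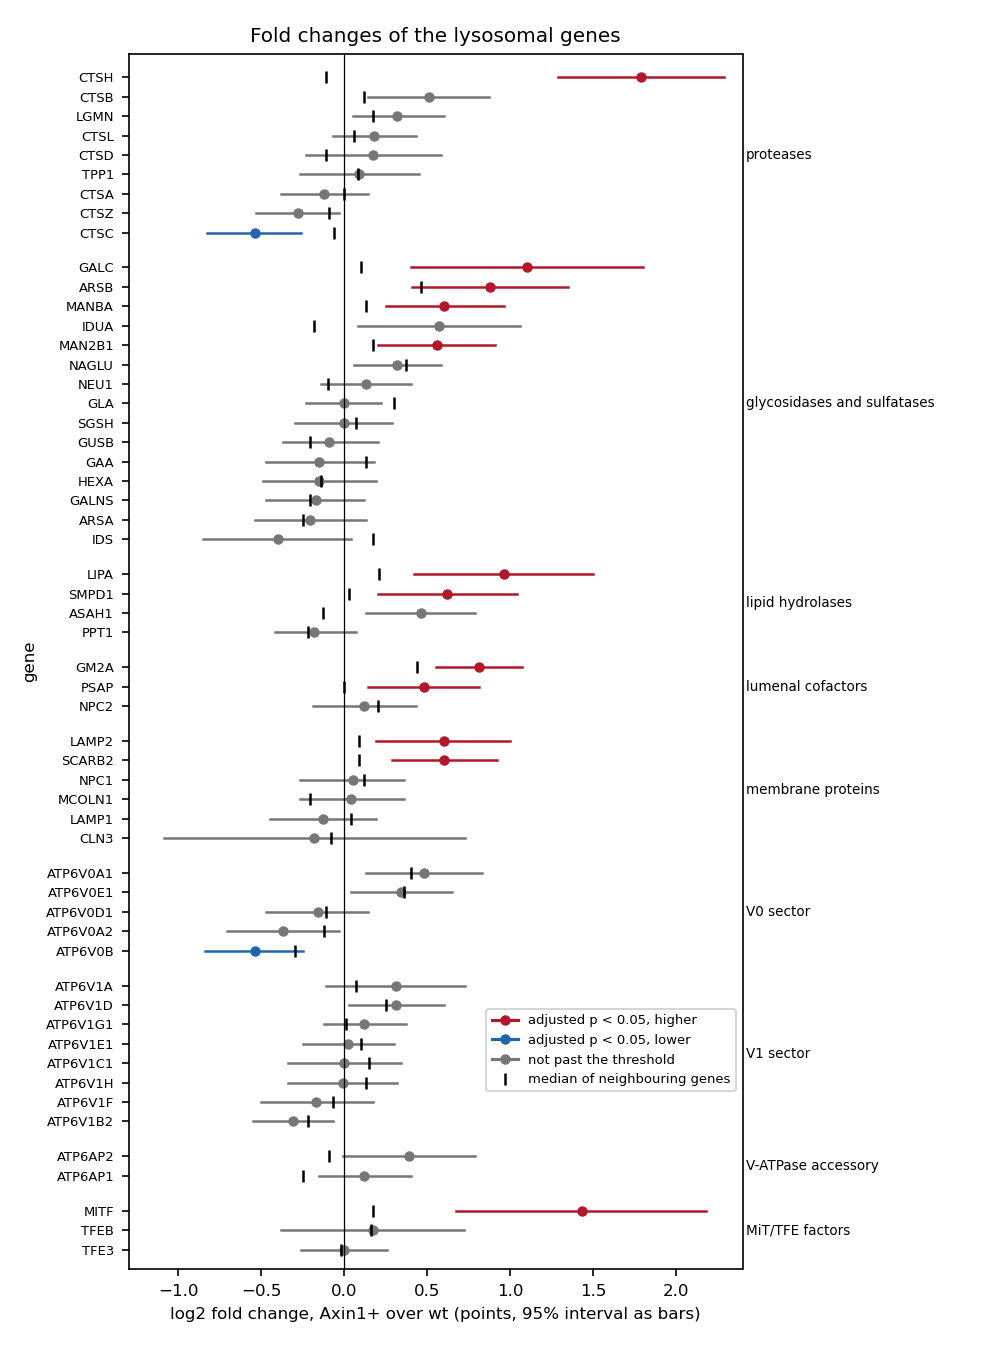
Points give the log2 fold change of each tested lysosomal gene, Axin1+ over wt, with its 95% interval as a bar, and short black lines give the median log2 fold change of up to 40 neighbouring genes on the chromosome. The 12 genes in red and the 2 in blue passed the threshold, and the neighbours of GM2A, ARSB and ATP6V0E1 on chromosome 5 lay between 0.36 and 0.46.

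Of the 9 proteases tested, 1 was higher and 1 was lower, 22.2% in all beside 19.2% of all genes. CTSH (ENSG00000103811, chromosome 15, 78921058 to 78949574, minus strand) encodes cathepsin H, an aminopeptidase. Its level was 5.52, 3.18, 4.28 and 3.65 CPM in wt replicates 1 to 4 and 18.6, 14.4, 11.9 and 12.5 CPM in Axin1+ replicates 1 to 4. Every Axin1+ library was more than 11 CPM and no wt library reached 6 CPM. The gene rose 3.46-fold (log2 fold change 1.79, SE 0.23, 95% confidence interval 1.29 to 2.29, edgeR adjusted p = 0.000604), from the lowest level per length among the hydrolases. The wt values of CTSH rest on 47 to 62 counts per library and the Axin1+ values on 174 to 518.

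CTSC (ENSG00000109861, chromosome 11, 88293592 to 88337787, minus strand) encodes cathepsin C, also called dipeptidyl peptidase I, which activates serine proteases. It stood at 231, 320, 325 and 304 CPM in the wt and 203, 201, 203 and 203 CPM in the Axin1+ libraries. The groups did not overlap, and wt replicate 1 was the wt library nearest to the Axin1+ level. CTSC fell by 0.54 on the log2 scale (SE 0.13, edgeR adjusted p = 0.0164), a call lost without wt replicate 2 (adjusted p = 0.0595), Axin1+ replicate 3 (0.0515) or Axin1+ replicate 4 (0.0513) and with total counts as the only scaling (0.0512). The most abundant proteases per kilobase of exon, CTSA, CTSD and CTSL with means of 136, 116 and 113 CPM per kilobase, were not called, at log2 fold changes of -0.12, 0.17 and 0.18. A second gene model, ENSG00000250644, shares 41.7% of the exon length of CTSD on the same strand, so the level and rank of CTSD may be understated. CTSB, the cathepsin B gene, had a log2 fold change of 0.51 (SE 0.17) and just missed the threshold with an adjusted p of 0.054. In LGMN, the asparaginyl endopeptidase legumain, the values were 104 to 126 CPM in the wt and 127 to 163 CPM in the Axin1+ libraries (log2 fold change 0.32, adjusted p = 0.0936). For CTSZ they were 121 to 140 CPM and 97.0 to 119 CPM (log2 fold change -0.28, adjusted p = 0.110), and TPP1, the tripeptidyl peptidase deficient in a form of ceroid lipofuscinosis, stood at 0.09.

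Among the 15 glycosidases and sulfatases 4 were higher and 0 were lower at the same threshold, 26.7% in all beside 19.2% of all genes. At an unadjusted p under 0.05 there were 6, beside 33.5% of all genes, and the median log2 fold change was 0.00. GALC (ENSG00000054983, chromosome 14, 87837820 to 87993665, minus strand), the galactosylceramidase lost in Krabbe disease, stood at 3.47, 7.45, 10.6 and 6.87 CPM in the wt and 13.8, 9.66, 15.9 and 21.4 CPM in the Axin1+ libraries. The value of Axin1+ replicate 2 lay below that of wt replicate 3. GALC rose 2.14-fold (log2 fold change 1.10, SE 0.32, edgeR adjusted p = 0.0347), and without Axin1+ replicate 4 the value was 0.89 with an adjusted p of 0.117. It was also not called without wt replicate 2 (adjusted p = 0.0819), wt replicate 4 (0.0737) or Axin1+ replicate 3 (0.0861).

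ARSB (ENSG00000113273, chromosome 5, 78777209 to 78986087, minus strand), arylsulfatase B, which removes sulfate from dermatan and chondroitin sulfate, stood at 17.6, 32, 31.3 and 36.4 CPM in the wt and 52.3, 42.6, 55.6 and 64.9 CPM in the Axin1+ libraries. All Axin1+ values were above all wt values, and wt replicate 1 was the lowest library. ARSB rose 1.83-fold (log2 fold change 0.88, SE 0.21, edgeR adjusted p = 0.0174), within a chromosome 5 neighbourhood whose median was 0.46. Without Axin1+ replicate 4 its adjusted p was 0.0606. The mannosidase genes MANBA and MAN2B1, for the beta and alpha linkages, rose 1.52-fold and 1.47-fold. MANBA had 71.8, 70.6, 76 and 60.5 CPM in the wt and 75.9, 115, 105 and 128 CPM in the Axin1+ libraries, with Axin1+ replicate 1 inside the wt range. MAN2B1 had 85.7, 58.3, 53.4 and 53.1 CPM in the wt and 91.0, 98.3, 92.8 and 85.8 CPM in the Axin1+ libraries, where wt replicate 1 came close to the lowest Axin1+ value. Their adjusted p values of 0.0246 and 0.0336 (edgeR) ranged over the alternatives up to 0.0812 and 0.100, and each call was lost in 7 of 18 of them. For MANBA these included leaving out any of wt replicates 2 and 4 and Axin1+ replicates 2 to 4, and for MAN2B1 any of replicates 2 to 4 of either line.

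The other 11 genes of this group were not called and had log2 fold changes from -0.40 to 0.57. IDUA, the alpha-L-iduronidase, was highest at 0.57 (SE 0.22, edgeR adjusted p = 0.0998), and its exons share 13.3% of their length with SLC26A1 on the opposite strand. IDS, the iduronate sulfatase that precedes it in the breakdown of dermatan and heparan sulfate, was lowest at -0.40 (SE 0.20, adjusted p = 0.186). NAGLU and SGSH, which act on heparan sulfate, were at 0.32 (adjusted p = 0.0842) and 0.00. The remaining 7 were GAA at -0.15, GALNS at -0.17, GLA at 0.00, GUSB at -0.09, HEXA at -0.15, ARSA at -0.21 and NEU1 at 0.13.

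Of the 4 lipid hydrolases 2 were higher, and of the 3 lumenal cofactors, which help lipids reach their enzymes, 2 were higher, beside 10.4% of all genes. Whether these groups differ from the other genes was not tested. LIPA (ENSG00000107798, chromosome 10, 89213569 to 89414557, minus strand), lysosomal acid lipase, which frees cholesterol from endocytosed lipoproteins, stood at 21.4, 39.7, 54.2 and 36.1 CPM in the wt and 65.7, 59.5, 75 and 94.4 CPM in the Axin1+ libraries. It rose 1.95-fold (log2 fold change 0.96, SE 0.25, edgeR adjusted p = 0.0214) without overlap between the groups. The adjusted p was 0.073 without Axin1+ replicate 4, 0.0567 without Axin1+ replicate 3, 0.0561 without wt replicate 2 and 0.0511 without wt replicate 4. SMPD1 (ENSG00000166311, chromosome 11, 6390431 to 6394998, plus strand), acid sphingomyelinase, had 25.3, 28.6, 37.2 and 40.0 CPM in the wt and 42.7, 42.3, 64.9 and 51.4 CPM in the Axin1+ libraries. The groups were separated by a narrow margin, and SMPD1 rose 1.54-fold (log2 fold change 0.62, SE 0.19, edgeR adjusted p = 0.0427). That call was lost when any of wt replicates 1 to 3 or Axin1+ replicates 3 and 4 was left out, at adjusted p values up to 0.133. ASAH1, acid ceramidase, had a log2 fold change of 0.46 (SE 0.15) and an adjusted p of 0.0531, and PPT1, a palmitoyl-protein thioesterase, had -0.18.

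GM2A (ENSG00000196743, chromosome 5, 151212150 to 151270440, plus strand) encodes the activator protein that lifts ganglioside GM2 out of the membrane for hexosaminidase A. It stood at 61.3, 71.2, 61.1 and 67.7 CPM in the wt and 101, 110, 122 and 125 CPM in the Axin1+ libraries. The groups were well apart, with no wt library above 72 CPM. GM2A rose 1.75-fold (log2 fold change 0.81, SE 0.12, 95% confidence interval 0.55 to 1.07, edgeR adjusted p = 0.00120), and its neighbours on chromosome 5 had a median of 0.44. HEXA, a subunit gene of the enzyme it serves, was at -0.15 (adjusted p = 0.518) and was not called.

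PSAP (ENSG00000197746, chromosome 10, 71816298 to 71851375, minus strand), the precursor of the saposins that activate several sphingolipid hydrolases, had the highest level per length of the whole set with a mean of 370 CPM per kilobase. It stood at 1040, 896, 1170 and 903 CPM in the wt and 1550, 1140, 1470 and 1410 CPM in the Axin1+ libraries, so that Axin1+ replicate 2 lay below wt replicate 3. PSAP rose 1.39-fold (log2 fold change 0.48, SE 0.15), the weakest of the calls with an edgeR adjusted p of 0.0478. It was lost in 8 of 18 alternative analyses, with upper-quartile scaling among them (adjusted p = 0.0533), and when wt replicate 2 or 4 or Axin1+ replicate 1, 3 or 4 was left out. The cholesterol-binding protein NPC2 had a log2 fold change of 0.12 and was not called. Summed over the 3 cofactors, the level was 1036 to 1296 CPM in the wt and 1353 to 1714 CPM in the Axin1+ libraries.

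**Figure D3:**
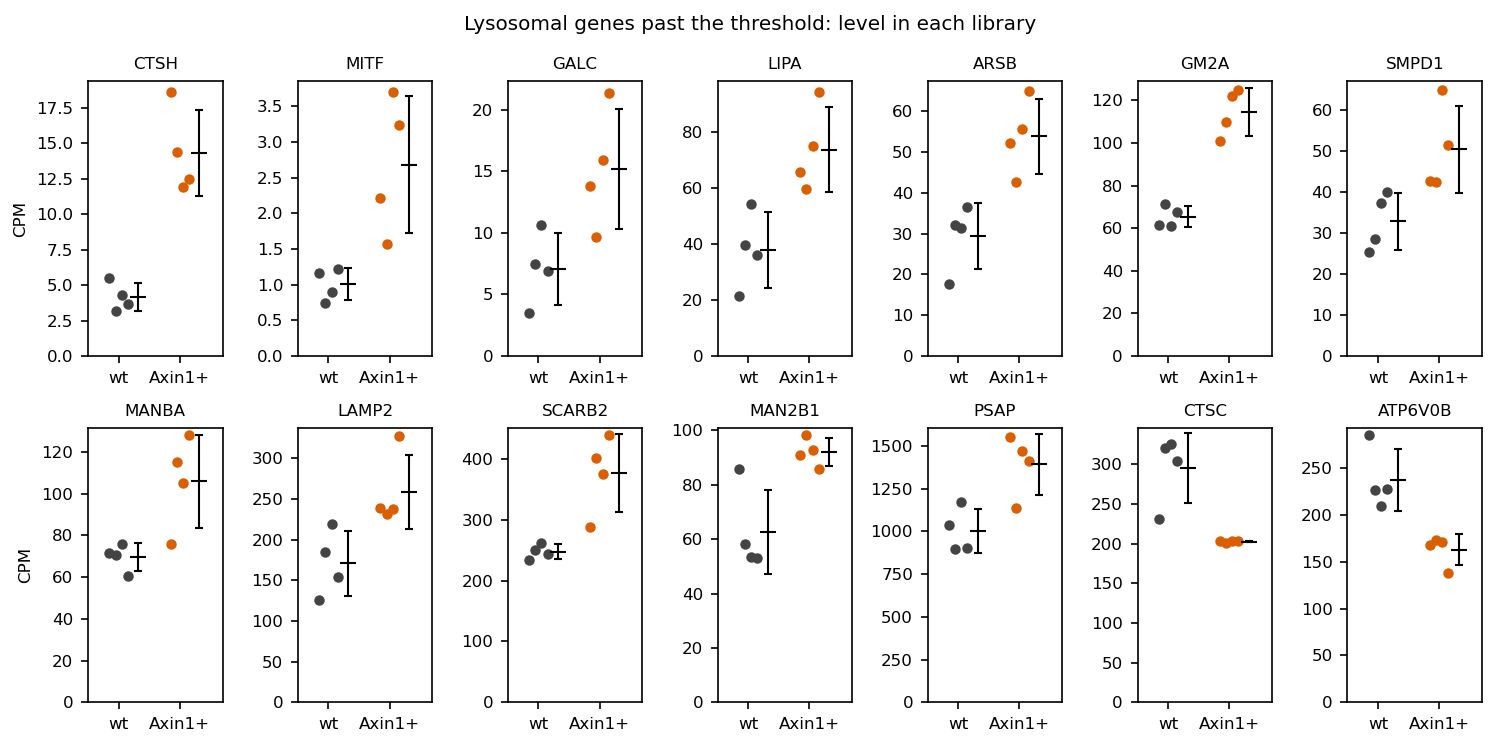
Each panel shows CPM on a linear axis from 0 for one of the 14 called lysosomal genes, with 1 point per library and the mean and SD of each group (n = 4) beside the points. CTSH and GM2A show wide gaps between the groups, and GALC, MANBA and PSAP show 1 Axin1+ library within the wt range.

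Of the 6 membrane proteins 2 were higher and 0 were lower, beside 10.4% and 8.77% of all genes. LAMP2 (ENSG00000005893, chromosome X, 120427827 to 120469365, minus strand), a heavily glycosylated protein of the lysosomal membrane that also serves chaperone-mediated autophagy, stood at 126, 185, 219 and 154 CPM in the wt and 239, 232, 237 and 327 CPM in the Axin1+ libraries. It rose 1.51-fold (log2 fold change 0.60, SE 0.18, edgeR adjusted p = 0.0434). The call was lost in 8 of 18 alternatives, and leaving out wt replicate 1, 2 or 4 or Axin1+ replicate 2, 3 or 4 gave adjusted p values between 0.0556 and 0.135. SCARB2 (ENSG00000138760, chromosome 4, 76158733 to 76234536, minus strand), also known as LIMP-2, carries glucocerebrosidase to the lysosome. It had 233, 250, 262 and 244 CPM in the wt and 288, 401, 375 and 439 CPM in the Axin1+ libraries, with Axin1+ replicate 1 lowest of its group and still above every wt library. SCARB2 rose 1.52-fold (log2 fold change 0.60, SE 0.14, edgeR adjusted p = 0.0153), or 0.52 with an adjusted p of 0.0532 without Axin1+ replicate 4.

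LAMP1, the close relative of LAMP2 and the most abundant membrane protein gene here with a mean of 103 CPM per kilobase, was not called. It stood at 490, 603, 701 and 674 CPM in the wt and 647, 509, 539 and 559 CPM in the Axin1+ libraries, a difference of -0.13 on the log2 scale (SE 0.15, adjusted p = 0.572 in edgeR). Per kilobase of exon, the ratio of LAMP1 to LAMP2 within a library was 3.54 ± 0.536 (SD, n = 4) in the wt and 2.14 ± 0.396 (SD, n = 4) in the Axin1+ libraries. The lowest wt ratio was 3.08 and the highest Axin1+ ratio 2.61. This pair was chosen after its values were seen and was not tested. NPC1, the cholesterol exporter, and MCOLN1, the calcium channel TRPML1, were at log2 fold changes of 0.05 and 0.04.

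CLN3, a membrane protein deficient in juvenile ceroid lipofuscinosis, had only 9 to 25 counts per library. It stood at 2.14, 1.02, 0.802 and 0.716 CPM in the wt and 0.789, 1.40, 1.23 and 0.742 CPM in the Axin1+ libraries. The log2 difference of CLN3, -0.18 (SE 0.41, adjusted p = 0.790 in edgeR), became 0.25 without wt replicate 1, the highest library. In the annotation 25.2% of the exon length of CLN3 is shared on the same strand with a second gene model, ENSG00000261832, which had at most 1 count in any library. How reads falling in shared exons were counted is not given in the sources used here, so the level of CLN3 may be understated. In all, 12 members shared exon bases with another gene model on the same strand. The called genes MAN2B1 (13.1% and 8.09% of its exon length) and MANBA (9.69%) were among them. So were IDS (up to 16.5%), NAGLU (12.6%) and TPP1 (11.6%), and these levels may be understated too.

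The same limit bears on the V-ATPase. ATP6V0C, which encodes the proteolipid of the rotating membrane ring, was the only member that failed the filter on low counts, with 1 to 9 counts per library. Its level was 0.623, 0.0677, 0.445 and 0.644 CPM in the wt and 0.323, 0.0826, 0.345 and 0.273 CPM in the Axin1+ libraries. The gene models ENSG00000260272 and ENSG00000259784 share 57.5% and 14.6% of its exon length on the same strand, and both were at 0 counts in every library. These values therefore cannot be read as the amount of ATP6V0C mRNA.

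Of the 15 V-ATPase genes tested, 0 were higher and 1 was lower, or 6.67% beside 19.2% of all genes. There were 6 genes at an unadjusted p under 0.05, beside 33.5% of all genes. DESeq2 called 3, beside 3549 genes in all. The median log2 fold change was 0.02. Summed over the 16 genes the level was 1837 to 2080 CPM in the wt and 1893 to 2178 CPM in the Axin1+ libraries. Leaving out both wt replicate 1 and Axin1+ replicate 1 gave 6 called V-ATPase genes, beside 4623 of all 14332 genes. Of these 6, ATP6V0A1, ATP6V0E1 and ATP6V1D were higher and ATP6V0A2, ATP6V0B and ATP6V1B2 lower. With wt replicate 1 alone left out there were 3 calls, beside 3523 over all genes. With Axin1+ replicate 1 or 2 left out there were 2, beside 3159 and 2134. With Axin1+ replicate 4 left out there were 0, beside 1394, and with total counts as the only scaling 4, beside 2592.

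In the V0 sector, ATP6V0B (ENSG00000117410, chromosome 1, 43974487 to 43978295, plus strand), a second proteolipid of the ring, stood at 285, 226, 209 and 227 CPM in the wt and 168, 173, 171 and 138 CPM in the Axin1+ libraries. Every Axin1+ library was below every wt library. ATP6V0B fell by 0.54 on the log2 scale (SE 0.13, edgeR adjusted p = 0.0188), beside a neighbourhood median of -0.30 on chromosome 1. Without Axin1+ replicate 4 the adjusted p was 0.0654. An antisense gene model shares 8.54% of its exon length. ATP6V0A1, one of the isoforms of the large subunit a, had 135, 94.0, 92.2 and 113 CPM in the wt and 160, 124, 177 and 145 CPM in the Axin1+ libraries. Its log2 fold change was 0.48 (SE 0.16) with an adjusted p of 0.0563, beside a neighbourhood median of 0.40, and it passed the threshold in DESeq2 (adjusted p = 0.0355), with total counts as the only scaling (0.0281), without a filter (0.0278), and without wt replicate 1 (0.0117) or Axin1+ replicate 2 (0.0417). ATP6V0A2, the isoform of the Golgi, was at -0.37 (adjusted p = 0.123), ATP6V0D1 at -0.16 and ATP6V0E1 at 0.34 (adjusted p = 0.107).

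Another isoform of subunit a was called lower. TCIRG1, which encodes isoform a3 of lysosomes and osteoclasts, had 120, 111, 89.9 and 115 CPM in the wt and 83.0, 68.3, 66.1 and 48.8 CPM in the Axin1+ libraries. It fell by 0.71 on the log2 scale (SE 0.16, edgeR adjusted p = 0.0140) without overlap. Per kilobase of exon TCIRG1 stood at 24.9 CPM in the wt and 15.2 CPM in the Axin1+ libraries, against 2.17 CPM for ATP6V0A2 and 11.9 CPM for ATP6V0A1 over all libraries. The ratio of ATP6V0A1 to TCIRG1 per kilobase was 0.451, 0.340, 0.410 and 0.392 in the wt and 0.771, 0.726, 1.07 and 1.19 in the Axin1+ libraries. The ratio was thus higher in each Axin1+ library than in any wt library, a comparison chosen after the values were seen and not tested. ATP6V0A4 was below the filter.

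**Figure D4:**
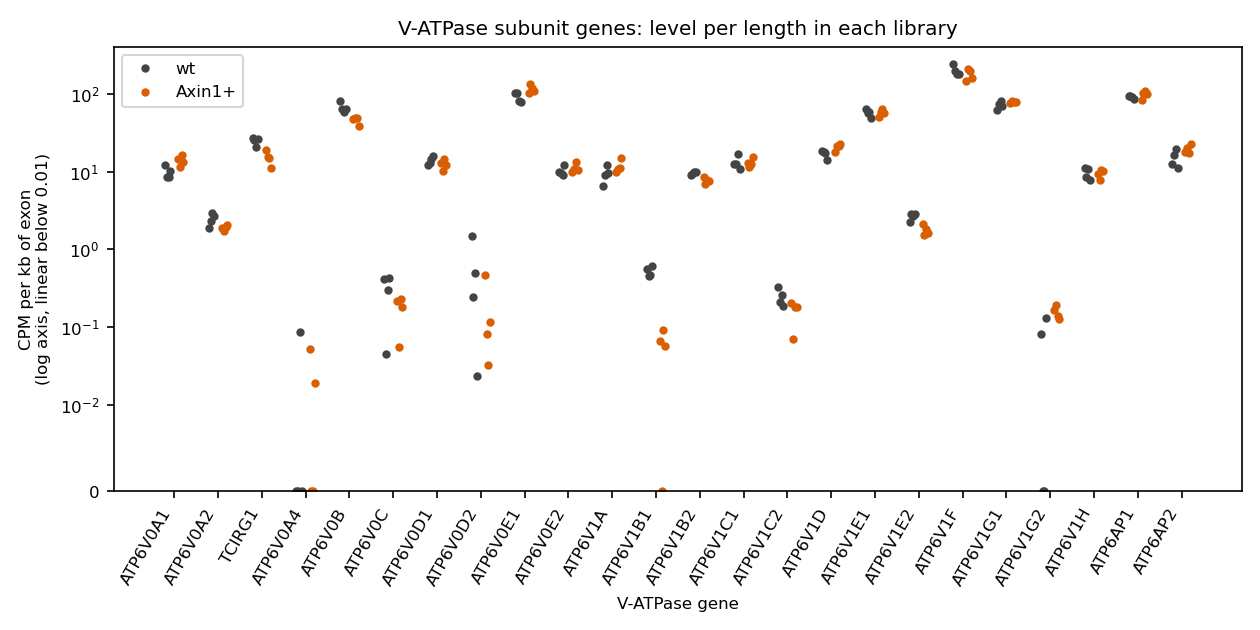
Points give the level of V-ATPase genes in each library as CPM per kilobase of exon on a log axis that is linear below 0.01. ATP6V1F, ATP6V0E1 and ATP6AP1 have the highest levels, TCIRG1 and ATP6V1B1 lie lower in the Axin1+ libraries, and ATP6V0C, which shares annotated exons with other gene models, had 1 to 9 counts per library.

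All 8 genes of the V1 sector were tested and 0 were called by edgeR, beside 19.2% of all genes. At an unadjusted p under 0.05 in edgeR there were 2, beside 33.5% of all genes. DESeq2 called 1, beside 3549 genes in all. ATP6V1B2, the widely expressed isoform of the nucleotide-binding subunit B, came nearest. It stood at 71.5, 72.0, 77.5 and 76.7 CPM in the wt and 65.7, 53.8, 61.4 and 59.0 CPM in the Axin1+ libraries (log2 fold change -0.31, SE 0.11, edgeR adjusted p = 0.0689). The groups did not overlap, and DESeq2 gave an adjusted p of 0.0484. ATP6V1B1, the isoform of acid-secreting epithelia, was at 1.51, 1.22, 1.25 and 1.65 CPM in the wt and 0.179, 0, 0.246 and 0.156 CPM in the Axin1+ libraries. ATP6V1B1 fell by 3.09 on the log2 scale (SE 0.46, edgeR adjusted p = 0.00149) from a level that was already low, beside a neighbourhood median of -0.31. ATP6V1F had the highest level per length of the pump genes (mean 188 CPM per kilobase) and a log2 fold change of -0.17. The catalytic subunit gene ATP6V1A and ATP6V1D were both at 0.31 with adjusted p values of 0.276 and 0.114, and ATP6V1C1, ATP6V1E1, ATP6V1G1 and ATP6V1H lay between -0.01 and 0.12. Of the accessory proteins, ATP6AP1 was at 0.12 and ATP6AP2, also known as the prorenin receptor, at 0.39 (SE 0.18, adjusted p = 0.157).

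The 3 MiT/TFE factors were expressed at very different levels. TFE3 was by far the most abundant, at 133, 105, 101 and 109 CPM in the wt and 116, 112, 117 and 104 CPM in the Axin1+ libraries, a log2 difference of 0.00 (SE 0.12, adjusted p = 0.995 in edgeR). TFEB had 2.67, 2.91, 3.56 and 3.94 CPM in the wt and 3.19, 3.05, 4.93 and 3.51 CPM in the Axin1+ libraries (log2 fold change 0.17, SE 0.25, adjusted p = 0.675). Per kilobase of exon the ratio of TFE3 to TFEB was 46.9 ± 13.6 (SD, n = 4) in the wt and 41.7 ± 8.19 (SD, n = 4) in the Axin1+ libraries. MITF (ENSG00000187098, chromosome 3, 69739435 to 69968337, plus strand) was the lowest per length, and the only one called. Its level was 1.16, 0.745, 0.891 and 1.22 CPM in the wt, resting on 10 to 17 counts per library, and 2.22, 1.57, 3.70 and 3.24 CPM in the Axin1+ libraries, resting on 19 to 83 counts. MITF rose 2.69-fold (log2 fold change 1.43, SE 0.34, edgeR adjusted p = 0.0165), and all Axin1+ libraries were above all wt libraries. The call was lost without wt replicate 2 (adjusted p = 0.0592), Axin1+ replicate 3 (0.0578) or Axin1+ replicate 4 (0.0570). The counts do not separate the many first exons of MITF, and the activity of these factors, which is set largely by phosphorylation and nuclear entry, is not measured by mRNA.

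Promoter sequence was examined because these factors bind E-boxes. RefSeq windows on GRCh38.p14, from 250 bases before to 50 bases after each transcription start, were at hand for 41 of the 56 genes, and CTSB, LGMN, HEXA, ARSA, MANBA, SGSH, NAGLU, ASAH1, PSAP, LAMP2, ATP6V0E1, ATP6V1A, ATP6V1B2, ATP6V1C1 and ATP6V1H were not matched. Both strands were searched for the E-box core CACGTG, for its extension TCACGTG, and for the CLEAR palindrome, in which CACGTG is preceded by GT and followed by AC. Each longer motif contains the shorter ones. The palindrome occurred in 4 of the 41 genes (9.76%), against 0.421% of the 27305 genes in the table and 0.901% of the 10546 tested genes matched. TCACGTG occurred in 12 (29.3%), against 4.49% of all and 7.31% of tested genes, and the same 12 held CACGTG, against 8.77% and 12.5%. By class these were 6 of 22 hydrolases and cofactors, 3 of 5 membrane proteins, 3 of 11 V-ATPase genes and 0 of 3 MiT/TFE factors. A match is a description of the letters, not a bound site.

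The stretches below are shown since they carry the motif in the called genes that hold it, ATP6V0B and ARSB, in the 4 genes with the palindrome, and in LAMP1, which has the most cores. Each reads 5′ to 3′ on the gene's strand and ends before the transcription start. Capitals mark CACGTG with the neighbouring letters that extend it to TCACGTG or to the palindrome on either strand.
ATP6V0B (chr1:43974883-43974946, plus strand): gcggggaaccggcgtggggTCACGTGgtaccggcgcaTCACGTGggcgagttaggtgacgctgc
ARSB (chr5:78986093-78986138, minus strand): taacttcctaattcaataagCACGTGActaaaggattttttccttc
GAA (chr17:80101485-80101575, plus strand): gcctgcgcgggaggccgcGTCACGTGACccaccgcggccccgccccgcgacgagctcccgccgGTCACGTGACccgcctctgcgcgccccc
GALNS (chr16:88856954-88857141, minus strand): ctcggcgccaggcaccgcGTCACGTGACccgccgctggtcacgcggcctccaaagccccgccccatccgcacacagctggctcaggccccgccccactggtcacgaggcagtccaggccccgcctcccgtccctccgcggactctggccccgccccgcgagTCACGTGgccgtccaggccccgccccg
MCOLN1 (chr19:7522563-7522623, plus strand): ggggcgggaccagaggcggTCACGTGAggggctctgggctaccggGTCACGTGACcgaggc
ATP6V1G1 (chr9:114587691-114587736, plus strand): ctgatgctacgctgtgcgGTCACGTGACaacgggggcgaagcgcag
LAMP1 (chr13:113297027-113297236, plus strand): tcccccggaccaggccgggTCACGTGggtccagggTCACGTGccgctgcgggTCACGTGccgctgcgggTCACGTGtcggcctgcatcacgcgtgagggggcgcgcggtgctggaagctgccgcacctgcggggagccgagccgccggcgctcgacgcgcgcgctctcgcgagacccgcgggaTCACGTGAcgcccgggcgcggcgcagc
LAMP1 held 6 cores in its window, 5 of them in the stretch shown, and GAA held the palindrome at both of its positions.

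Changes were compared between genes with and without the motif. Of the 12 tested genes with TCACGTG, 1 was higher (ARSB) and 1 was lower (ATP6V0B), and their median log2 fold change was -0.12. Among the 28 tested genes without it, 8 were higher and 1 was lower, with a median of 0.14. The same split over all tested genes gave 17.5% called with the motif and 19.9% without it, with medians of -0.04 and 0.02. By direction these were 63 higher and 72 lower of 771 genes with the motif, and 1086 higher and 855 lower of 9775 without it. The 4 genes with the palindrome had log2 fold changes of -0.15 (GAA), -0.17 (GALNS), 0.04 (MCOLN1) and 0.12 (ATP6V1G1), with edgeR adjusted p values between 0.395 and 0.856. The windows of the called genes CTSH, MITF, GALC, LIPA and GM2A held none of the 3 motifs, while ARSB, whose log2 fold change of 0.88 lay between those of LIPA and GM2A, held TCACGTG. These counts are small and the difference between the classes was not tested.

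Position along the chromosome was recorded beside each value, as the median log2 fold change of up to 20 tested genes on either side. That median was at least 0.3 in size for 7 of the 55 tested genes, including the called genes GM2A (0.44), ARSB (0.46) and ATP6V0B (-0.30). All 3 members on chromosome 5 were in this situation, the third being ATP6V0E1 at 0.34 with a neighbourhood median of 0.36. Less the neighbourhood, GM2A stood at 0.38, ARSB at 0.42 and ATP6V0B at -0.24. For CTSH, MITF, GALC and LIPA the neighbourhood medians were -0.11, 0.17, 0.10 and 0.21, and the differences from them 1.90, 1.26, 1.01 and 0.75. Of the 14 called genes 12 had the sign of their neighbours, the exceptions being CTSH and PSAP, whose neighbourhood median was 0.00 after rounding. The matching shares over all tested or all called genes were not computed. Neither this count nor the 7 of 55 therefore sets the lysosomal genes apart. The part that position plays in these differences was not tested.

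The rest of the pathway was read from 86 further genes, of which 78 were tested. Here 12 were higher and 6 lower, 23.1% in all beside 19.2% of all genes, and the median was -0.01. By list, in the order below, 30%, 36.4%, 13.3%, 20%, 16.7% and 20% of the tested genes were called. Whether these lists differ from the other genes was not tested. Without Axin1+ replicate 4 the calls numbered 7, without wt replicate 2 they were 8, and without wt replicate 3 or Axin1+ replicate 3 they were 11. Among 20 other hydrolases and lumenal proteins 5 rose and 1 fell. DNASE2, the lysosomal DNase, rose from 112 to 174 CPM (log2 fold change 0.63, SE 0.11, edgeR adjusted p = 0.00370), and PLBD2, a phospholipase B-like protein, had 0.47 (SE 0.11, adjusted p = 0.0177). NAAA, an acid amidase for N-acylethanolamines, fell by 1.44 on the log2 scale (SE 0.33, adjusted p = 0.0139) from 3.04 to 1.15 CPM.

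Of 11 other V-ATPase isoform and assembly genes 1 rose and 3 fell. DMXL1, a component of the rabconnectin complex that assembles the pump, rose from 8.89 to 17.8 CPM (log2 fold change 1.00, SE 0.21, edgeR adjusted p = 0.00838), beside a neighbourhood median of 0.56. The genes that fell were TCIRG1 and ATP6V1B1, given above, and ATP6V1E2, at -0.58 (SE 0.17, adjusted p = 0.0326), which was added after its value was seen. Of 15 other membrane proteins and transporters 2 rose and 0 fell: OSTM1, the partner of the chloride-proton exchanger CLCN7, with 0.72 (SE 0.18, adjusted p = 0.0177), and SLC38A9, an arginine sensor upstream of mTORC1, with 0.71 (SE 0.18, adjusted p = 0.0193). Their neighbourhood medians were 0.32 and 0.31. CLCN7 itself was at -0.26 and was not called.

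A list of 10 genes covered mannose 6-phosphate sorting, by which newly made hydrolases reach the lysosome, and also SUMF1, which is not part of that route. Of the 10, 2 rose and 0 fell, beside 10.4% and 8.77% of all genes. GNPTAB, which encodes the phosphotransferase that makes the tag, rose from 20.4 to 36.1 CPM (log2 fold change 0.83, SE 0.20, edgeR adjusted p = 0.0156). Its wt libraries lay between 14.6 and 22.5 CPM and its Axin1+ libraries between 26.7 and 44.8 CPM. SUMF1, which activates the sulfatases, was at 0.48 (SE 0.14, adjusted p = 0.0398), a call lost in 9 of 18 alternatives. The receptors M6PR and IGF2R were not called, at -0.34 and 0.08. Of 12 genes for Rag GTPases, Ragulator and folliculin, which relay the amino acid state of the lysosome to mTORC1 and to the MiT/TFE factors, RRAGB rose by 0.56 (SE 0.16, adjusted p = 0.0353) and LAMTOR5 fell by 0.50 (SE 0.14, adjusted p = 0.0311). These calls were lost in 8 and 7 of 18 alternatives, and the neighbours of LAMTOR5 had a median of -0.68, lower than the gene itself. Of 10 autophagy genes counted to the CLEAR network, BECN1 rose by 0.69 (SE 0.16, adjusted p = 0.0128) and GABARAPL1 fell by 0.46 (SE 0.15, adjusted p = 0.0493), all on the log2 scale. The call of GABARAPL1 was lost in 10 of 18 alternatives and that of BECN1 in 1. SQSTM1 was the most abundant of these at 2440 CPM in the wt and 2860 CPM in the Axin1+ libraries and was not called (0.23, adjusted p = 0.260).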

How the data were processed

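The authors deposited 1 table of raw counts per gene for 8 RNA-seq libraries. Per the submitters' processing notes, bcl2fastq, fastp 0.23.1, STAR 2.7.4 and GRCh38 were used; which program counted reads, with which annotation and strand setting, is not given in the sources used here. Column names gave the sample of all 8 columns, and 0 columns were left over. GENCODE release 29 (GRCh38) held 57943 of the 58206 identifiers and gave positions and exon lengths.

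The deposited counts went into edgeR 4.0.16 (R 4.3.3) with filterByExpr (minimum count 10, minimum total 15), TMM factors, and the quasi-likelihood test of Axin1+ against wt without covariates, with two-sided p-values adjusted over all 14289 genes tested and a threshold of 0.05. Standard errors were derived as |log2 fold change| divided by √F, and intervals are at 95%. Library totals ranged from 11232951 to 26400782 counts, with a biological coefficient of variation of 0.227. The test was also run on simulated counts, and the outcome of that run is not given here.

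The members and gene lists were chosen with earlier results of these data known. Named genes are all called members, the 3 with the smallest p-value and those of highest and lowest level per length in each class, the MiT/TFE factors, and up to 3 called genes from each further list. Alternatives were DESeq2 1.42.0, limma-voom (limma 3.58.1), other scalings (DESeq2 size factors, upper quartile, total counts), other filters, a threshold of 0.01, the replicate number as a block and each library left out. Leaving out the first library of both lines together was added after seeing the data.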

Additional observations from a re-analysis of the deposited data

Results flagged for a closer look

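Among the 110 groups of 4 libraries formed by the 55 tested genes, 6 held 1 library that lay far from the other 3, by Dixon's criterion at the 95% level (gap over range above 0.829). Chance flags about 1 in 20 such groups. In wt replicate 1, CTSD stood at 437 CPM against 303 to 310 CPM in the other wt libraries, and MAN2B1 at 85.7 CPM against 53.1 to 58.3 CPM. In Axin1+ replicate 4, LAMP2 stood at 327 CPM against 232 to 239 CPM, ATP6V0B at 138 CPM against 168 to 173 CPM, and IDUA at 23.3 CPM against 30.7 to 31.7 CPM. In Axin1+ replicate 2, CTSC stood at 201 CPM while the other 3 libraries were all at 203 CPM to 3 digits, a gap that is large only against that narrow range. LAMP2 and ATP6V0B were not called without Axin1+ replicate 4, and MAN2B1 was called without wt replicate 1.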

How the results depend on the processing

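With total counts as the only scaling, 19 members were higher and 1 lower, and the member median was 0.201. There 4 V-ATPase genes were called, beside 2592 genes in all. At a threshold of 0.01, 2 members were higher (CTSH and GM2A) and 0 lower, with 2 calls among hydrolases and cofactors, 0 among membrane proteins, V-ATPase genes and factors, 3 in the rest of the pathway and 964 over all genes. Without a filter 2 V-ATPase genes were called, beside 3196 genes in all, and with DESeq2 3, beside 3549. Without both first libraries 5 members were lower, 6 V-ATPase genes, 31 further pathway genes and 4623 genes in all were called, and the member median was 0.187. With 1 library left out in turn, members called higher ranged from 2 to 12 and lower from 0 to 4, hydrolases and cofactors from 2 to 11, membrane proteins from 0 to 2, V-ATPase genes from 0 to 3, factors from 0 to 1, further pathway genes from 7 to 24 and all genes from 1394 to 3523. The member median ranged from 0.091 to 0.195 and AXIN1 from -0.26 to -0.13. These fits use fewer samples. Why the counts moved in either direction was not tested. Directions turned only in named genes that were not called: CLN3 (0.25 without wt replicate 1, 0.36 without both first libraries, and -0.36 at the lowest), ATP6V1F (0.02 without both first libraries), TFEB (0.00 without Axin1+ replicate 3, and 0.27 at the highest) and TFE3, which was at -0.01 with DESeq2 size factors and with upper-quartile factors and ranged from -0.05 to 0.09 with 1 library left out. Replicate numbers did not pair the libraries: same-numbered libraries had correlations of deviations of -0.06, 0.01, -0.03 and 0.23, and 1 of the 8 libraries correlated best with its own number. With the replicate number as a block, 10 members were higher and 2 lower, 1 membrane protein and 2033 genes in all were called, and MANBA, PSAP and LAMP2 were no longer past the threshold. Few counts limit the precision of ATP6V0C, CLN3 and MITF, which had at most 9, 25 and 83 per library.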
